A study of Mus musculus with 16 samples.

Results

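The genes described here are 9 genes of glucose and glycogen metabolism in mouse liver: *Gckr*, *Slc2a2*, *Pklr*, *Pck1*, *Fbp1*, *Pcx*, *Gys2*, *Pygl* and *Ppp1r3c*. These were chosen by name, with earlier results of these data known. They are 9 of the 52143 genes in the table, and all 9 were among the 11324 genes with enough counts to be tested. Liver RNA was sequenced from male C57BL6/J mice in 4 groups of 4 libraries. The mice were 6 weeks old at the start and were fed for 12 weeks with chow (Chow) or with a high-fat diet holding 60% fat (HFD). Every 2 weeks they were injected with saline or with an siRNA at 3 mg/kg against *Fgfr4* (FGFR4 KD), the receptor through which the gut hormone FGF15 acts on hepatocytes. The siRNA carried a GalNAc group, which directs it to hepatocytes, and the controls received saline rather than a control siRNA, so that the loss of *Fgfr4* and the injection of an siRNA cannot be told apart. The labels number the libraries without tying them to animals, and the study describes a column of its expression heatmaps as 1 mouse. Its mice were kept 4 to a cage, and no source used here says whether a group of 4 was 1 cage, so that cage and group may not be separable.

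As background, the liver takes glucose from portal blood after a meal and returns glucose to blood in fasting. Glucose crosses the hepatocyte membrane through the transporter GLUT2, the product of *Slc2a2*. Its phosphorylation in the hepatocyte is controlled by a regulatory protein encoded by *Gckr*. The phosphorylated sugar enters glycolysis, whose last step in liver is made by the pyruvate kinase of *Pklr*, or is stored as glycogen by the liver glycogen synthase of *Gys2*. Glycogen phosphorylase (*Pygl*) releases it again, and *Ppp1r3c* encodes a subunit that brings protein phosphatase 1 to the glycogen particle. Pyruvate carboxylase (*Pcx*), phosphoenolpyruvate carboxykinase (*Pck1*) and fructose bisphosphatase (*Fbp1*) make steps of gluconeogenesis that bypass irreversible steps of glycolysis, and glucose-6-phosphatase (*G6pc*) sets the glucose free. Not all of the 9 products are enzymes, since *Slc2a2* encodes a transporter and *Gckr* and *Ppp1r3c* encode regulators.

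In GRCm38, *Gckr* lies at chr5:31297443-31327314, *Slc2a2* at chr3:28697903-28731359, *Pklr* at chr3:89136142-89146784, *Pck1* at chr2:173153048-173159273 and *Pcx* at chr19:4510472-4621752, all on the plus strand. *Fbp1* lies at chr13:62864753-62888282, *Gys2* at chr6:142422613-142473109, *Pygl* at chr12:70190811-70231488 and *Ppp1r3c* at chr19:36731731-36736653, all on the minus strand. All 9 are protein-coding. *Pklr* overlaps the end of *Hcn3* on the other strand, and 21.1% of the 31-base words in its annotated transcripts also occur in those of *Hcn3*. The counts of *Hcn3* ranged from 0 to 6 per library, against at least 542 for *Pklr*. Of the other members, the share of such words found in other genes was at most 1.41%, in *Pygl*.

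Stretches before the start sites of *Pklr*, *Pck1*, *Ppp1r3c* and *Pcx* are shown because they hold a match to a short motif of those searched. RefSeq start sites of GRCm38.p6 gave 10 windows of 250 bases for 8 of the 9 members, with no entry for *Gys2*. The windows were searched on both strands for a carbohydrate response element-like motif (CACGNG and CNCGTG with any 5 bases between them), the E-box CACGTG, a cAMP response element-like motif TNACGTCA, the FOXO-like motif TGTTTAC and an HNF1-like motif (GTTAAT and ATT with any 1 base between them). Each stretch below is given 5′ to 3′ on the strand of the gene, outside annotated exons, with the motif in capitals.
Pklr, chr3:89136383-89136539, plus strand: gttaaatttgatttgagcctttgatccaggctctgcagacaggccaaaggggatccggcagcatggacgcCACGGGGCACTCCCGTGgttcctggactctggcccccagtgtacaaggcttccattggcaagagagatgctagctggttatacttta
Pck1, chr2:173152910-173153047, plus strand: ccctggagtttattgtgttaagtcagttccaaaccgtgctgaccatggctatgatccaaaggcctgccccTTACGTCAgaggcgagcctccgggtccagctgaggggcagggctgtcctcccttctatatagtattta
Ppp1r3c, chr19:36736654-36736778, minus strand: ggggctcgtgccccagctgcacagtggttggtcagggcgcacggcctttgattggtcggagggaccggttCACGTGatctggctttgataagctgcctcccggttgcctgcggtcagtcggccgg
Pcx, chr19:4510222-4510299, plus strand: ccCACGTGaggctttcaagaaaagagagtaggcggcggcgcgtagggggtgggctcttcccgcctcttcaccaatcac

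The motif of *Pklr* began 170 bases before the second of its start sites, in an intron of the transcript that begins at the first, and its kind was found in 0.0396% of the 32851 promoter windows of all genes. The cAMP response element-like motif of *Pck1* began 93 bases before the start site, and 2.52% of all windows hold one. The E-box stood 104 bases before the start of *Ppp1r3c* and 248 bases before the first start of *Pcx*, and 6.02% of all windows hold one. The FOXO-like motif, held by 3.17% of all windows, and the HNF1-like motif, held by 0.371%, were found in no window of a member. No match overlapped another. The windows of *Slc2a2*, *Gckr*, *Pygl* and *Fbp1* held none of the motifs searched. A match describes the letters only, and no binding was measured.

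The library labels were checked first on the targeted gene. *Fgfr4* was at 25.7 ± 4.25 CPM (counts scaled to library size, SD, n = 4) in HFD and 3.74 ± 1.35 CPM in HFD/FGFR4 KD. On chow the saline libraries were at 29.7 ± 4.57 CPM and the KD libraries at 4.78 ± 1.60 CPM. The KD and saline libraries did not overlap on either diet, with adjusted p = 9.06e-05 on HFD and adjusted p = 0.000223 on chow. Total counts ranged from 3445949 to 5976449 per library. The summed level of 8 hepatocyte markers was between 68044 and 89969 CPM in every library. The library HFD/FGFR4 KD 1 had the lowest *Pklr*, *Pcx* and *Gys2* of its group, and counts of called members are given with and without it.

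Levels between genes are compared per length, which holds for reads from whole transcripts. The labels name a KAPA mRNA HyperPrep kit, whereas the methods of the study name an HTG EdgeSeq analysis, so this order is given with that doubt. Without division by length *Slc2a2*, at 196 CPM, came before *Pklr* (157 CPM), *Gckr* (130.0 CPM) and *Gys2* (105 CPM). When levels in Chow were divided by the length of the longest transcript, *Pck1* was the highest of the 9 genes at 795 ± 97.3 CPM per kilobase (SD, n = 4), followed by *Fbp1* at 423 ± 20.6 and *Pygl* at 148 ± 9.07. *Pcx* (80.9 ± 4.60), *Gckr* (57.2 ± 3.24), *Pklr* (54.0 ± 8.19), *Gys2* (39.4 ± 7.45), *Slc2a2* (35.1 ± 2.24) and *Ppp1r3c* (20.3 ± 11.9) followed in CPM per kilobase. The gaps between *Gckr* and *Pklr* and between *Gys2* and *Slc2a2* were smaller than the larger SD of each pair. The remaining neighbours in this order were further apart than the larger of their SDs.

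**Figure D1:**
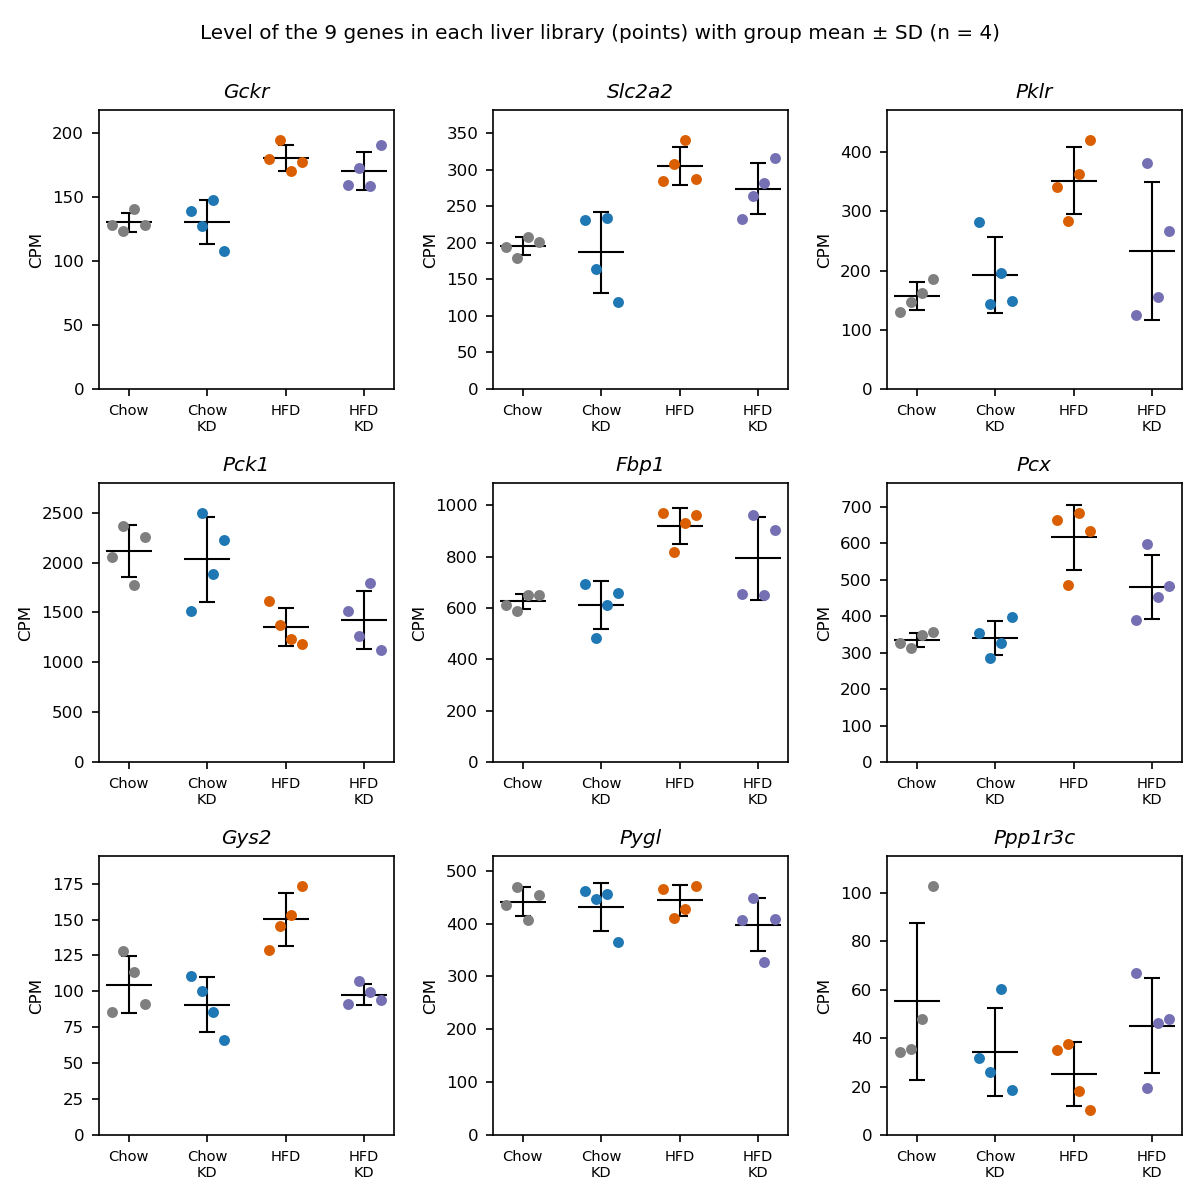
Level of each of the 9 genes in CPM (vertical axis, from 0) in the 16 liver libraries, with a panel for each gene and a column for each group (KD stands for FGFR4 KD). Points are libraries, the wide bar is the group mean and the whiskers are the SD of 4 libraries. *Gckr*, *Slc2a2*, *Pklr*, *Fbp1*, *Pcx* and *Gys2* are higher and *Pck1* is lower in every HFD library than in any Chow library.

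The first question was how the diet alone moved these genes, in saline-injected mice. HFD raised 6 of the 9 genes and lowered 2, and *Pygl* did not pass the test. The genes that rose are those of glucose entry and its control (*Slc2a2*, *Gckr*), the liver pyruvate kinase gene *Pklr*, the gluconeogenic genes *Fbp1* and *Pcx*, and the glycogen synthase gene *Gys2*. Those that fell were *Pck1* and *Ppp1r3c*. Calls required an unadjusted p under 0.05 and an adjusted p (Benjamini-Hochberg, limma-voom) under 0.25, as the study set them, and 26% of all genes tested were called in this comparison (13.3% rising and 12.7% falling). At an adjusted p under 0.05, where 9.20% of all genes passed, 7 of the 9 members were called, and *Ppp1r3c* and *Pygl* were not. In 7 members the Chow and HFD libraries did not overlap, against 16.1% of all genes. The median log2 change of the 9 members was 0.53, against 0.007 over all genes.

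*Slc2a2* was at 194, 179, 209 and 201 CPM in the Chow libraries and at 285, 309, 341 and 288 CPM in the HFD libraries. Every HFD library was above every Chow library, and the means differed 1.56-fold. The log2 change was 0.64 (SE 0.17, adjusted p = 0.0227, limma-voom). *Gckr* read 128, 123, 141 and 128 CPM in Chow and 179.7, 194, 170.0 and 177 CPM in HFD. It showed a small spread within each group and a 1.39-fold difference of means, with a log2 change of 0.47 (SE 0.09, adjusted p = 0.00592).

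*Pklr* had the widest rise of the 9 genes. It was at 130.2, 148, 162 and 186 CPM in Chow and 340.5, 283, 362 and 421 CPM in HFD, so that the lowest HFD library was well above the highest Chow library. The means differed 2.24-fold (log2 change 1.17, SE 0.28, adjusted p = 0.0164).

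The 3 gluconeogenic members did not move together. *Pcx*, which turns pyruvate into oxaloacetate, was at 327, 313, 347 and 355 CPM in Chow and 663, 486, 683 and 634 CPM in HFD. HFD 2 was the lowest of its group and was still above all Chow libraries. The rise was 1.84-fold (log2 change 0.87, SE 0.13, adjusted p = 0.0013). *Fbp1* was at 613, 589, 652 and 649.6 CPM in Chow and 970.3, 818, 931 and 962 CPM in HFD, a 1.47-fold rise (log2 change 0.55, SE 0.13, adjusted p = 0.0156). *Pck1*, which turns oxaloacetate into phosphoenolpyruvate, went the other way. It was at 2058, 2367, 1777 and 2257 CPM in Chow and 1612, 1372, 1235 and 1184 CPM in HFD, and no HFD library reached the lowest Chow library. Its mean in HFD was 63.9% of that in Chow (log2 change -0.65, SE 0.16, adjusted p = 0.0189). *G6pc*, whose product ends both gluconeogenesis and glycogen breakdown, fell too, from 385, 851, 417 and 491 CPM in Chow to 225, 248, 169 and 43.4 CPM in HFD. Its log2 change was -1.84 (SE 0.41, adjusted p = 0.0109), with HFD 4 far below the others.

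The glycogen members also differed from each other. *Gys2* was at 85.9, 128, 113 and 90.9 CPM in Chow and 129, 146, 153 and 173 CPM in HFD. The groups touched without overlapping, with 128 and 129 CPM as the nearest values. The log2 change was 0.53 (SE 0.15, adjusted p = 0.0317). *Pygl* was at 435, 469, 407 and 455 CPM in Chow and 465, 411, 427 and 471 CPM in HFD. Its log2 change was 0.007, and the 95% interval, from -0.21 to 0.22, leaves room for a change of either sign of that size. *Ppp1r3c* was read at 34.4, 35.7, 48.1 and 103 CPM in Chow and 35.0, 37.8, 18.1 and 10.3 CPM in HFD. Its groups overlapped, and Chow 4 stood above the other 7 libraries. The log2 change was -1.11 (SE 0.46, adjusted p = 0.134), and this call was lost without Chow 4 (log2 change -0.77, adjusted p = 0.319), without HFD 3 (adjusted p = 0.271) and without HFD 4 (adjusted p = 0.291). Over 19 alternatives its adjusted p ranged from 0.0974 to 0.319, and it was called in 15.

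The scaling bears on these directions. With library totals in place of TMM factors, the median log2 change of all genes moved by 0.28, and the share of called genes that rose went from 51.2% to 92.1%. The 6 rises and the fall of *Pck1* were called under both scalings. Under library totals *Pygl* was called as higher in HFD, by 0.29 on the log2 scale (adjusted p = 0.12), about the shift of all genes, and *Ppp1r3c* was no longer called (log2 change -0.84, adjusted p = 0.173).

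**Figure D2:**
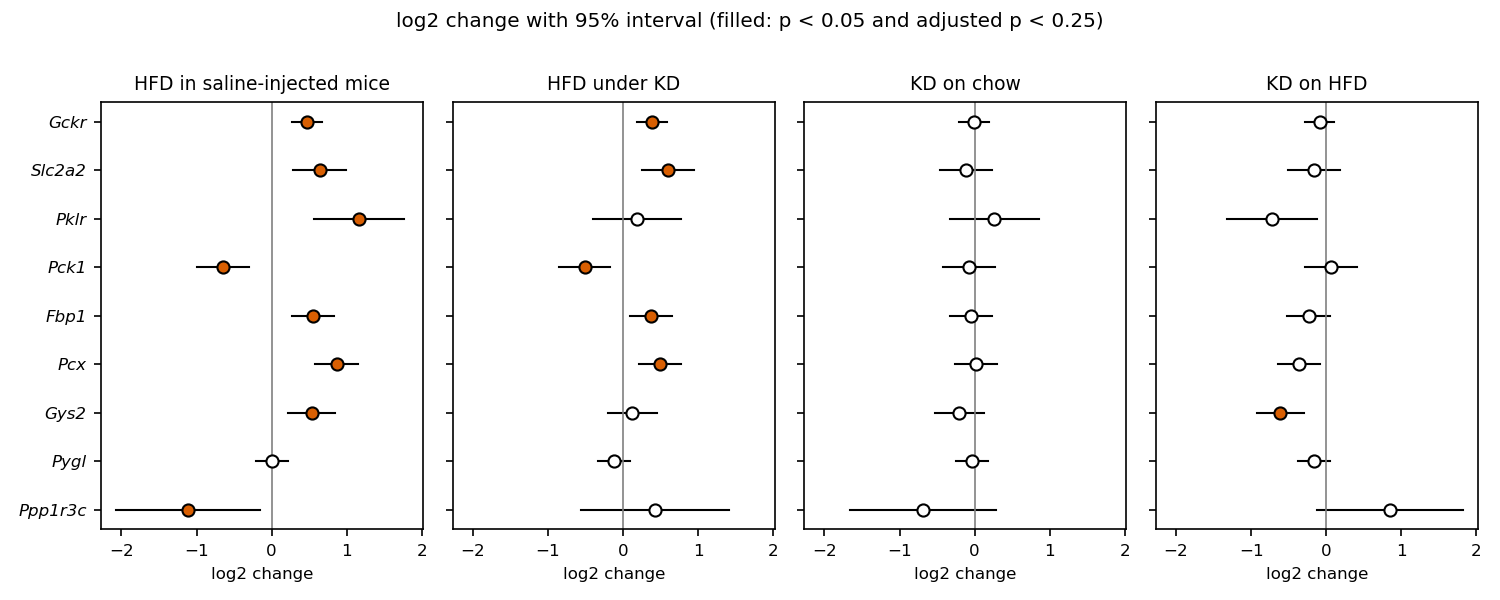
log2 change of each of the 9 genes (points) with its 95% interval (lines) in 4 comparisons, from the limma-voom model over 16 libraries. Filled points passed p under 0.05 with adjusted p under 0.25. There are 8 filled points for HFD in saline-injected mice, 5 for HFD under KD, none for KD on chow and 1, *Gys2*, for KD on HFD.

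Other markers of the samples moved with the diet, and their part in these results was not tested. Of 9 macrophage markers, 8 rose in HFD, with a summed level of 65.5 to 73.6 CPM in Chow and 122.6 to 215 CPM in HFD. Of 8 stellate cell markers, 4 rose, with sums of 96.8 to 139 CPM in Chow and 156 to 283 CPM in HFD. Of 8 hepatocyte markers, 4 fell, while the summed level ranged from 71299 to 78082 CPM in Chow and from 68044 to 82119 CPM in HFD. All 3 adipocyte markers that could be tested rose, with sums of 4.97 to 29.2 CPM over 7 markers in Chow and 45.8 to 115.6 CPM in HFD, but *Lep* was at 0 in every library and *Adipoq* and *Plin1* were at or near 0. The *Arntl* list of clock genes held *Arntl*, *Npas2*, *Clock*, *Cry1* and *Nfil3*. All 5 fell, with sums of 145.6 to 191 CPM in Chow and 51.5 to 76.1 CPM in HFD. The *Per1* list of clock genes held *Per1*, *Per2*, *Per3*, *Nr1d1*, *Nr1d2*, *Dbp*, *Tef*, *Hlf*, *Ciart* and *Bhlhe41*. Of its 8 tested genes 6 rose, with sums over the whole list of 188 to 287 CPM in Chow and 318 to 483 CPM in HFD. Of 7 endothelial markers 3 rose (138 to 192 CPM and 167 to 188 CPM). Of 10 fasting-response genes 2 rose and 3 fell, with sums of 2815 to 3584 CPM in Chow and 4186 to 4561 CPM in HFD, without overlap. *Pck1* and *G6pc* are known to follow feeding and the time of day, and the hour of sampling is not given in the sources used here. In whole tissue, fewer cells of a type and less RNA per cell cannot be told apart.

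The same diet comparison under the KD was made with separate mice. HFD/FGFR4 KD and Chow/FGFR4 KD differed in 5 of the 9 members, of which 4 rose and 1 fell, where 20.2% of all genes were called. *Gckr* was at 139, 128, 147 and 108 CPM in Chow/FGFR4 KD and 159, 173, 158 and 190.2 CPM in HFD/FGFR4 KD. It was the only member whose groups did not overlap, against 11.5% of all genes, and the only one called at an adjusted p under 0.05, which 3.10% of all genes reached (log2 change 0.39, SE 0.09, adjusted p = 0.0368). *Slc2a2* was at 231, 164, 234 and 119 CPM in Chow/FGFR4 KD and 232, 265, 283 and 317 CPM in HFD/FGFR4 KD, and rose by 0.60 on the log2 scale (adjusted p = 0.0619). *Pcx* (0.49, adjusted p = 0.0549) and *Fbp1* (0.37, adjusted p = 0.135) were higher and *Pck1* was lower (log2 change -0.51, adjusted p = 0.092), with overlapping libraries. *Pklr* (log2 change 0.18), *Gys2* (0.12), *Ppp1r3c* (0.42) and *Pygl* (-0.12) did not pass the test. The call of *Fbp1* was lost without Chow/FGFR4 KD 2 (adjusted p = 0.297), without HFD/FGFR4 KD 2 (adjusted p = 0.323) and without HFD/FGFR4 KD 4 (adjusted p = 0.321), and that of *Pck1* without HFD/FGFR4 KD 4 (adjusted p = 0.253). Without HFD/FGFR4 KD 1 the number of members called was again 5. Markers moved with this comparison too, and their part in it was not tested. All 5 clock genes of the *Arntl* list fell (sums of 150.1 to 236 CPM in Chow/FGFR4 KD and 87.9 to 135 CPM in HFD/FGFR4 KD). In the *Per1* list 7 of 8 tested genes rose (170.0 to 192 CPM and 313 to 381 CPM). Of the fasting-response genes 3 rose and 3 fell, with sums of 2390.2 to 3580 CPM and 2840.2 to 4156 CPM. Of 9 macrophage markers 2 rose (82.3 to 109.7 CPM and 99.1 to 179 CPM), as did 2 of 3 tested adipocyte markers (sums over 7 markers of 4.57 to 16.9 CPM and 14.2 to 43.4 CPM). Of 8 stellate markers 1 rose (81.6 to 132 CPM and 109.3 to 191 CPM), as did 1 of 7 endothelial markers (92.6 to 172 CPM and 130.4 to 159 CPM).

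The question of most interest to the study was what the KD did in mice on HFD. Of the 9 genes, 1 was called, *Gys2*, which was lower. Of all genes tested 3.14% were called in this comparison (1.5% rising and 1.64% falling), and 0.274% at an adjusted p under 0.05. *Gys2* was at 129, 146, 153 and 173 CPM in HFD and at 91.0, 107, 99.3 and 93.8 CPM in HFD/FGFR4 KD. All 4 KD libraries were below all 4 saline libraries, and 6.49% of all genes had groups apart in either direction. The mean under the KD was 65.1% of that in HFD, with a log2 change of -0.61 (SE 0.15, adjusted p = 0.101, limma-voom). It was not called at an adjusted p under 0.05, and the call was lost without HFD 3 (log2 change -0.60, adjusted p = 0.257) and without HFD/FGFR4 KD 4 (-0.59, adjusted p = 0.26). Over 19 alternatives its adjusted p ranged from 0.0199 to 0.26, and it was called in 17. In Chow/FGFR4 KD *Gys2* was at 111, 100.4, 85.7 and 66.2 CPM, which overlaps the Chow libraries. The contrasts of diet and of KD for *Gys2* share the HFD libraries, which were the highest of the 4 groups. Of the clock genes, 3 of 5 in the *Arntl* list rose and 2 of 8 tested in the *Per1* list fell under the KD on HFD. The sums of the *Arntl* list were 51.5 to 76.1 CPM in HFD and 87.9 to 135 CPM in HFD/FGFR4 KD. Those of the *Per1* list overlapped, at 318 to 483 CPM in HFD and 313 to 381 CPM in HFD/FGFR4 KD. The sums of 10 fasting-response genes were 4186 to 4561 CPM in HFD and 2840.2 to 4156 CPM in HFD/FGFR4 KD, without overlap, although no gene of that list was called. The sums of 7 endothelial markers did not overlap either, at 167 to 188 CPM in HFD and 130.4 to 159 CPM in HFD/FGFR4 KD, with a log2 change below 0 for all 7 markers and none called. Of 3 tested adipocyte markers 2 fell, with sums over 7 markers of 45.8 to 115.6 CPM in HFD and 14.2 to 43.4 CPM in HFD/FGFR4 KD. Of 8 hepatocyte markers 1 rose and 1 fell, and no macrophage or stellate marker was called. The part of these markers in the result was not tested. Without HFD/FGFR4 KD 1 the only member called was again *Gys2*.

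*Pklr* was at 126, 381, 156 and 267 CPM in HFD/FGFR4 KD. Of these libraries 3 were below every HFD library, and HFD/FGFR4 KD 2 was within the HFD range. Its log2 change was -0.72 (SE 0.28, adjusted p = 0.349), which did not pass. Without HFD/FGFR4 KD 2 it was -1.01 with adjusted p = 0.0914, and the difference was then called. *Pcx* was at 389.6, 598, 453 and 482 CPM in HFD/FGFR4 KD, with a log2 change of -0.36 (SE 0.13, adjusted p = 0.315). It was called without HFD 2 (log2 change -0.47, adjusted p = 0.123), without HFD/FGFR4 KD 2 (adjusted p = 0.135) and with library quality weights (adjusted p = 0.188). *Ppp1r3c* was at 67.0, 19.5, 46.3 and 47.9 CPM in HFD/FGFR4 KD, 3 of which were above every HFD library. Its log2 change was 0.85 with a 95% interval from -0.12 to 1.82 (adjusted p = 0.527).

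The other 5 members were not called under the KD on HFD, and their intervals bound the change. *Fbp1* was at 654, 963, 652 and 902 CPM in HFD/FGFR4 KD, with replicates 1 and 3 at the level of the Chow libraries and replicates 2 and 4 at that of HFD. Its log2 change was -0.23, with an interval from -0.52 to 0.05. *Gckr* changed by -0.09 (interval -0.28 to 0.11), *Slc2a2* by -0.16 (-0.51 to 0.19), *Pygl* by -0.16 (-0.38 to 0.05) and *Pck1* by 0.06 (-0.28 to 0.41) on the log2 scale. *G6pc* read 349, 192, 305 and 272 CPM in HFD/FGFR4 KD, with a log2 change of 0.93 (adjusted p = 0.401), which did not pass the adjusted threshold.

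On chow, none of the 9 genes was called for the KD by limma-voom, edgeR or DESeq2, none had an unadjusted p under 0.05 (4.58% of all genes did), and 0.00883% of all genes, a single gene, was called. The log2 changes ran from -0.69 for *Ppp1r3c* (interval -1.66 to 0.29) to 0.26 for *Pklr* (interval -0.34 to 0.85). *Pklr* was at 283, 144, 196 and 149 CPM in Chow/FGFR4 KD, with replicate 1 above all Chow libraries. For *Gckr* (-0.004, interval -0.20 to 0.20) and *Pcx* (0.01, interval -0.26 to 0.29) the intervals were narrow around 0. No gene of the marker lists was called. All 9 macrophage markers had a log2 change above 0, with sums of 65.5 to 73.6 CPM in Chow and 82.3 to 109.7 CPM in Chow/FGFR4 KD, without overlap. The sums of the other marker lists overlapped. The part of these markers in the result was not tested.

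The KD effect on HFD minus that on chow was then tested in the same model. None of the 9 genes was called, where 0.0353% of all genes were. By edgeR and DESeq2 none was called either. An unadjusted p under 0.05 was seen in 6.76% of all genes and in 2 members, *Pklr* (difference -0.98, interval -1.82 to -0.14, adjusted p = 0.692) and *Ppp1r3c* (difference 1.54, interval 0.16 to 2.91, adjusted p = 0.70). For *Gys2* the difference was -0.41 (interval -0.86 to 0.04, adjusted p = 0.739), so that its fall on HFD was not shown to be particular to that diet.

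The other genes of the pathway came from a list of 101 genes, of which 93 were tested. In saline-injected mice HFD raised 31 and lowered 7 of these, where 13.3% of all genes rose and 12.7% fell, with a median log2 change of 0.17. With library totals, which moved the median of all genes upward, 50 of the 93 rose and 1 fell. Of all 11324 genes tested, 3967 rose and 339 fell under that scaling. The counts by list that follow are with TMM factors. In glucose phosphorylation and glycolysis 7 of 15 tested genes rose and none fell. In glycogen synthesis 4 of 9 rose and 1 fell. *Ugp2*, whose product makes the UDP-glucose that glycogen synthase uses, rose from 221, 247, 214 and 213 CPM in Chow to 356, 381, 387 and 405 CPM in HFD (log2 change 0.77, SE 0.11, adjusted p = 0.00104). *Gbe1*, the branching enzyme gene, rose by 0.87 (SE 0.18, adjusted p = 0.00739). *Ppp1r3b*, which encodes another glycogen-targeting subunit of the phosphatase, was the gene that fell (log2 change -0.57, adjusted p = 0.0833). Its call held in 17 of 19 alternatives. It was lost with library totals and without HFD 4 (log2 change -0.36, adjusted p = 0.213, with the unadjusted p not under 0.05). In glycogen breakdown 3 of 11 rose.

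Pyruvate oxidation had 4 of 9 genes that rose, with *Mpc1*, a subunit of the mitochondrial pyruvate carrier, at a log2 change of 0.80 (SE 0.12, adjusted p = 0.00139). In gluconeogenesis and glucose release 4 of 12 rose, *Got2* among them (0.34, SE 0.07, adjusted p = 0.00723), and *G6pc* was the only one that fell. Of 11 genes of fructose, galactose and polyol metabolism 5 rose, and of 8 genes of the pentose phosphate pathway 2 rose, with none falling in either list. Of 18 regulators 5 fell and 2 rose. *Creb1* fell by 0.42 (adjusted p = 0.064) with TMM factors, and was not called with library totals (log2 change -0.14, adjusted p = 0.434). *Creb3l3* fell by 0.23 (adjusted p = 0.0877) with TMM factors but was at 0.054 with library totals, where it was not called.

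**Figure D3:**
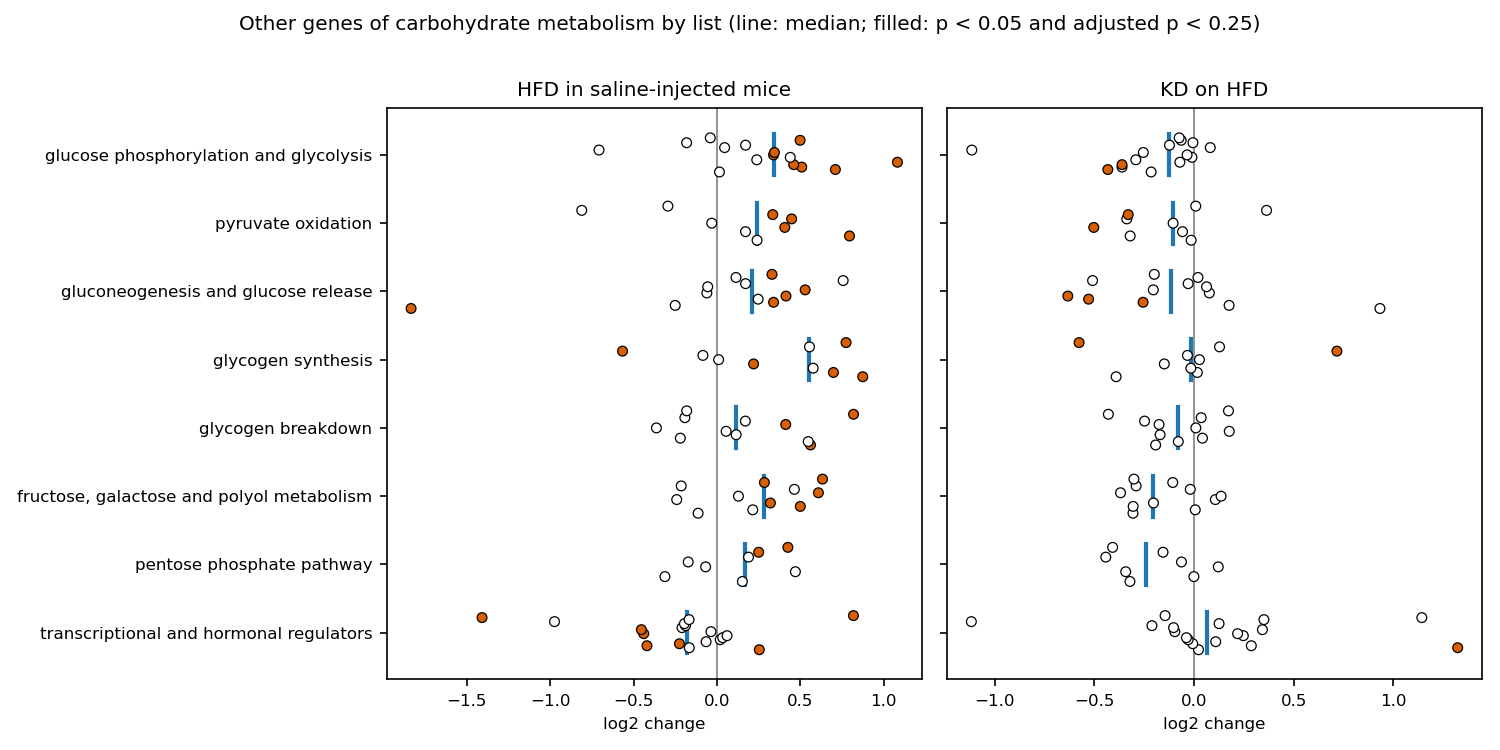
log2 change (horizontal axis) of the 93 other tested genes of carbohydrate metabolism, as points in rows by list, for HFD in saline-injected mice (left) and for KD on HFD (right). Filled points passed p under 0.05 with adjusted p under 0.25, and vertical lines are list medians. On the left 31 filled points lie above 0 and 7 below, and on the right 2 above and 8 below.

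Under the KD on HFD, 2 of the 93 genes rose and 8 fell, where 1.5% of all genes rose and 1.64% fell, with a median log2 change of -0.07. Of the glycogen synthesis list, *Ugp2* fell and *Ppp1r3b* rose. *Ugp2* was at 236, 307, 231 and 257 CPM in HFD/FGFR4 KD, below every HFD library (log2 change -0.58, SE 0.11, adjusted p = 0.0453), and it was the only pathway gene called at an adjusted p under 0.05. *Ppp1r3b* was at 228, 266, 166 and 122 CPM in HFD and 317, 272, 283 and 367 CPM in HFD/FGFR4 KD (log2 change 0.72, SE 0.20, adjusted p = 0.174). *Pdha1*, which encodes a subunit of pyruvate dehydrogenase, fell by 0.50 (adjusted p = 0.0807) and kept its call in all 19 alternatives. *Pdk2*, a gene for a kinase that inhibits that enzyme, fell by 0.33 (adjusted p = 0.203), but was called in only 8 of 19 alternatives, with adjusted p from 0.137 to 0.425. *Gpd1*, a glycerol-3-phosphate dehydrogenase gene, fell by 0.53 (adjusted p = 0.122) and *Got2* fell by 0.26 (adjusted p = 0.166). *Cebpb*, a transcription factor gene of the regulator list, rose from 25.6, 36.6, 30.8 and 32.9 CPM in HFD to 84.1, 79.0, 62.9 and 89.6 CPM in HFD/FGFR4 KD (log2 change 1.32, SE 0.36, adjusted p = 0.16). Of 19 alternatives *Cebpb* was called in 15, *Gpd1* in 14, *Got2* in 13 and *Ppp1r3b* in 12. The count of 10 pathway genes ranged from 3, without HFD 3 or without HFD/FGFR4 KD 1, to 19, without HFD 2. On chow, none of the 93 genes was called for the KD, with 5 whose groups did not overlap, against 2.52% of all genes. There the mean of *Cebpb* was 36.0 CPM with saline and 86.5 CPM under the KD (log2 change 0.98, adjusted p = 0.976, limma-voom). *Pdk2* changed by -0.36 on chow (adjusted p = 0.976). The difference between the KD effects was 0.35 for *Cebpb* (adjusted p = 0.93) and 0.03 for *Pdk2* (adjusted p = 0.986). Neither change on HFD was shown to be particular to that diet.

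With HFD under KD, 16 of the 93 genes rose and 6 fell, where 10.1% of all genes rose and 10.1% fell. *Cebpa* (log2 change 0.47, adjusted p = 0.0361), *Mpc1* (0.48, adjusted p = 0.0448), *Sord* (0.37, adjusted p = 0.0465) and *Pdk2* (0.37, adjusted p = 0.0678) were among those that rose. *Aldoa*, an enzyme gene of glycolysis, fell by 0.38 (adjusted p = 0.0792) and *H6pd* fell by 0.45 (adjusted p = 0.126). *Pfkfb3* fell by 2.10 (interval of the log2 change -3.66 to -0.54, adjusted p = 0.125). It was at 20.2, 28.4, 18.6 and 82.7 CPM in Chow/FGFR4 KD and 10.6, 11.9, 5.21 and 3.54 CPM in HFD/FGFR4 KD. *G6pc*, which fell with HFD in saline-injected mice, changed by -0.36 here (adjusted p = 0.663), and the difference between the KD effects on *G6pc* was 1.48 (adjusted p = 0.684), which did not pass.

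**Figure D4:**
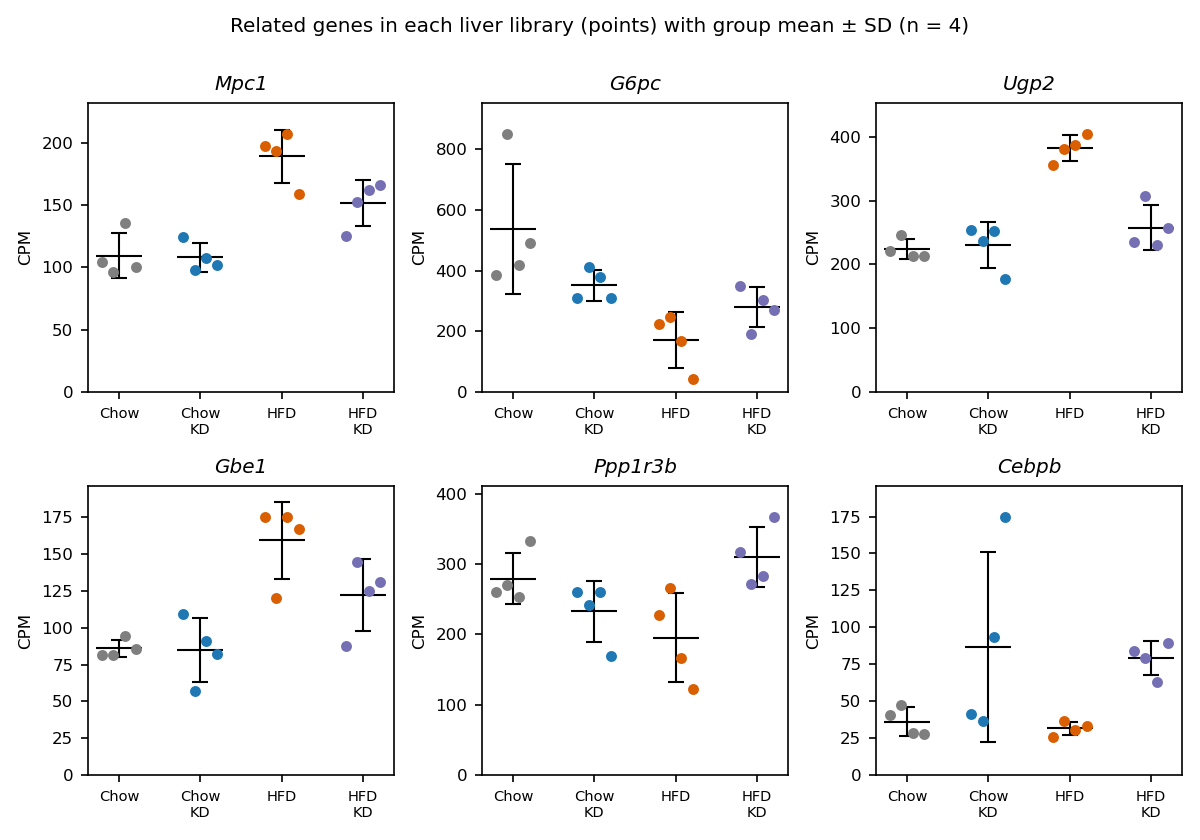
Level in CPM (vertical axis, from 0) of 6 related genes in the 16 liver libraries, with a column for each group (KD stands for FGFR4 KD). Points are libraries, the wide bar is the mean and the whiskers are the SD of 4 libraries. In the *Ugp2* panel every HFD library, the lowest at 356 CPM, is above every HFD/FGFR4 KD library, the highest at 307 CPM.

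The levels of the members were also compared with those of the other tested genes over the 16 libraries, as Pearson's r of log2 CPM. Predicted genes (Gm or Rik names) and genes under 1 CPM on average were left out of this comparison. These values are descriptions, since the libraries share the diet groups and their depth. *Pklr* was most like *Khk*, the fructokinase gene (r = 0.96), and *Eno1*, an enolase gene (r = 0.91). *Pcx* was most like *Apoa4* (r = 0.97) and *S1pr2* (r = 0.96), and *Fbp1* was most like *Gbe1* (r = 0.94) and *Pcx* (r = 0.94). *Gckr* was most like *Acadm*, an enzyme gene of fatty acid oxidation (r = 0.95), and *Agxt2* (r = 0.94). *Slc2a2* was most like *Acadm* (r = 0.94) and *Gckr* itself (r = 0.93). *Gys2* was most like *Decr2* (r = 0.91) and *Osbpl1a* (r = 0.90), and *Pck1* was most like *Alg1* (r = 0.90) and *Desi2* (r = 0.90). *Ppp1r3c* had *Psen2* (r = 0.87) and *Coq8a* (r = 0.87) as its nearest genes, and *Pygl* had *Adgrf5* (r = 0.77) and *Srgn* (r = 0.75), the weakest likeness among the 9 members.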

How the data were processed

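Expected counts per gene of 16 liver libraries were deposited by the authors, who trimmed reads with fastp (per the labels), quantified transcripts with kallisto against a mouse transcriptome, and converted these to gene values with tximport. The labels name GRCm38. Tool versions and the transcriptome release are not given in the sources used here. Strand use in counting is not stated. No depth scaling was seen in the table. Gene positions came from GENCODE M21 and promoters from RefSeq, both GRCm38.

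Genes under 1 CPM in more than 4 libraries were left out, the filter that the methods of the study state. The gene set was not the same, since the study reports more liver genes than the 11324 tested here. It also reports fewer genes altered by the KD on HFD than the 356 called here. The counts received TMM factors (edgeR 4.0.16) and were fitted with limma-voom (limma 3.58.1, R 4.3.3), with a mean for each group over all 16 libraries. Intervals are 95%. The unadjusted threshold was 0.05 and the adjusted one 0.25, over all genes tested. edgeR's quasi-likelihood test and DESeq2 (1.42.0, counts rounded to whole numbers), other filters, other scalings, quality weights, a replicate block and leaving out each library were alternatives. Total counts per library, 3445949 to 5976449, set the precision, and intervals cover the spread between libraries. The fit was also run on simulated counts with changes in HFD/FGFR4 KD only and no diet effect, and the outcome is not reported here.

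The members and lists were chosen with earlier results of these data known. Named genes are the 9 members, *Fgfr4*, *G6pc*, per comparison at most 5 rising and 5 falling called pathway genes whose groups do not overlap, and for each member the 2 genes with the highest r (log2 CPM, prior count 2). Some genes that this rule names are not reported here.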

Additional observations from a re-analysis of the deposited data

Results flagged for a closer look

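Of the 60 gene and group combinations looked at, 2 had a library far from the other 3 of its group by Dixon's test at the 95% level, and chance alone gives about 1 in 20. *Pygl* was at 365 CPM in Chow/FGFR4 KD 4, while the other 3 libraries of that group were between 446 and 461 CPM. *Gbe1* was at 120 CPM in HFD 2, against 167 to 175 CPM in the other HFD libraries. The cause of either was not tested.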

How the results depend on the processing

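The number of the 9 members called for HFD in saline-injected mice was 8 under the other tests, filters, scalings and weights, and 7 at an adjusted p under 0.05. With library totals the 8 included *Pygl* and left out *Ppp1r3c*, and they were 7 to 8 with a library left out. For HFD under KD it was 5, except 1 at an adjusted p under 0.05 and 3 to 5 with a library left out, the lowest without HFD/FGFR4 KD 4. For KD on HFD it was 1, except 0 at an adjusted p under 0.05, 2 (*Gys2* and *Pcx*) with quality weights, and 0 to 3 with a library left out. It was 0 without HFD 3 or HFD/FGFR4 KD 4, 3 without HFD/FGFR4 KD 2, 2 without HFD 2, and 1 without HFD/FGFR4 KD 1. For KD on chow and for the difference between the KD effects it was 0 under every alternative. Among the 266 alternative values of members called in their comparison, 10 lost the call and none changed sign. Among the 652 of members not called, 5 gained it and 31 changed sign. Scaled by library totals, 9 of the 36 group means of the members moved by more than 1 SD. These were *Gckr* in Chow and HFD (to 119 and 199.5 CPM), *Slc2a2* in Chow and HFD (179.6 and 339 CPM), *Fbp1* in Chow and HFD (574 and 1022 CPM), *Pygl* in Chow and HFD (402 and 492 CPM) and *Pcx* in Chow (308 CPM). *Creb3l3* went from -0.23 to 0.054 with library totals for HFD in saline-injected mice. Beside the diet, library totals moved the median log2 change of all genes by 0.15 for HFD under KD and by -0.13 for the difference between the KD effects, and the rising share of called genes went from 50.1% to 82.8% for HFD under KD and from 47.8% to 33.3% for KD on HFD.

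Counts over longer lists moved further. Of all genes, 356 were called for KD on HFD, against 31 at an adjusted p under 0.05, 114 with library totals, 776 with quality weights and 89 (without HFD 3) to 622 (without HFD 2) with a library left out. Of the pathway genes 10 were called there, against 1 at an adjusted p under 0.05, 4 with library totals, 6 with the compared groups alone and 3 to 19 with a library left out. For HFD in saline-injected mice the 2939 genes became 1042 at an adjusted p under 0.05 and 5324 with no filter, and the 38 pathway genes 17. For HFD under KD the 2293 genes became 351 and, without HFD/FGFR4 KD 4, 1189, and the 22 pathway genes 5 and 13. For the difference between the KD effects the 4 genes became 28 with DESeq2, which called 1 pathway gene (*Ugp2*), 7 with no filter or with quality weights, 2 with the block and 0 with library totals, and 1 to 27 with a library left out. For KD on chow the 1 gene became 2 with DESeq2 or the compared groups alone and 3 with library totals. The cause of these shifts was not tested. The labels share replicate numbers. Deviations from the group means correlated between -0.29 and 0.23 for libraries with the same number, and between -0.42 and 0.40 for those with different numbers. A pairing by number was thus not shown, though these values cannot exclude one. With a replicate block, 8 members were called for the diet in saline-injected mice, 5 for the diet under KD, 1 for KD on HFD, and 0 for KD on chow and for the difference, as without it. Removal of *Gm42418*, which held 11.1% to 22.7% of the counts of a library, before scaling was an alternative chosen after seeing the data and left the members' counts as they were.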
